A study of Mus musculus with 4 samples.

Results

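Exosomes of the small intestinal epithelium of aged mice (18m-SI-Exos) were compared with exosomes from the serum of mice of the same age (18m-serum-exos), 1 small RNA library per source. All mice were male C57BL/6J on standard chow, the serum came from blood drawn from the heart, and the exosomes of both sources were collected by ultracentrifugation. Libraries of the same sources at 3 months of age are used below only to show whether a difference between the sources was also seen in young mice. The labels give 4 RNA samples for 4 groups and do not say whether a sample held 1 mouse or a pool. The sources disagree on how the libraries were made, since the labels give a kit and sequencer of MGI (DNBSEQ) and the paper a VAHTS kit and a HiSeq instrument. The study followed miRNAs that SI-Exos and serum exosomes share as candidates for signals from the gut to adipose tissue, and the comparison here asks how far the miRNA contents of the 2 sources resemble each other at 18 months. There is 1 library per source, so no difference has a replicate check and no p-value is given. The intervals cover counting error only, and differences between mice, preparations and sequencing runs cannot be told apart from differences between the sources.

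The miRNAs were joined by name across the deposited tables of SI-Exos and of serum exosomes, and a name absent from a table was set to 0 reads in both of its libraries. The tables held 568 names of known and 100 of predicted miRNAs, of which 316 stood in both tables, 57 in that of SI-Exos alone and 295 in that of serum alone. Of these names, 536 had a read in at least 1 of the 2 libraries at 18 months. The tables were made separately, so a level set across them also carries any difference in how they were made. Depth came to 71353 miRNA reads for 18m-SI-Exos and 778237 for 18m-serum-exos. Levels are given as CPM, in which the miRNA reads of each library add up to the same total, and 1 read stands for 14.01 and 1.28 CPM. In the libraries at 3 months of age these totals were 212215 and 832002 reads. The miRNA reads made up 0.411% of the library total behind the authors' RPM in 18m-SI-Exos (exact 95% interval 0.408 to 0.414%) and 5.31% in 18m-serum-exos (5.30 to 5.32%), and the sources do not state what else that total holds. Ratios of SI-Exos to serum are 12.9-fold lower with the authors' RPM than with CPM, so a miRNA called higher in SI-Exos by less than that is lower there by RPM.

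MicroRNAs (miRNAs) are short RNAs that lead Argonaute proteins to messenger RNAs and lower their output, and the seed near the 5′ end sets most of the pairing. A hairpin precursor can give a miRNA from its 5p arm and another from its 3p arm, and for many hairpins only one of them accumulates. Exosomes carry miRNAs out of the cells that release them. miR-192, miR-194 and miR-215 are known as miRNAs of the gut epithelium, miR-451a as a miRNA of red blood cells and miR-122 as the main miRNA of hepatocytes, so such names serve as markers of where vesicle RNA may come from.

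Mature sequences were taken from RefSeq (GRCm38.p6), where 473 of the 568 known names and 58 of the 81 names selected as described below had an entry. They are written 5′ to 3′ with the seed, bases 2 to 8, in capitals. The first set holds the 3p arms that led the 18m-SI-Exos library, with the 5p partner of each.
miR-30e-3p: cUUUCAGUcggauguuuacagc
miR-30e-5p: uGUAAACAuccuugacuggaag
miR-194-1-3p: cCAGUGGAgcugcuguuacuuc
miR-194-5p: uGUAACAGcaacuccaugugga
miR-215-3p: uCUGUCAUucuguaggccaau
miR-215-5p: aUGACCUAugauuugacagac
The arms of a hairpin differ in seed, so a change of arm is a change of the sequence that meets a target. miR-192-5p shares the seed of miR-215-5p, and miR-429-3p stands for the miR-200 family.
miR-192-5p: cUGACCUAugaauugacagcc
miR-429-3p: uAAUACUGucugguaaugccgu
The next set shows the let-7 family, whose members share 1 seed and differ in single bases beyond it, and which lay on both sides of the comparison on the CPM scale.
let-7c-5p: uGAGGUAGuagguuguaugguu
let-7f-5p: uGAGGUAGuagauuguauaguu
let-7g-5p: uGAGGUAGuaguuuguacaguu
let-7i-5p: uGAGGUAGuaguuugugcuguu
miR-98-5p: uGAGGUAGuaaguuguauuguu
The last set of known miRNAs shows miR-451a, the most abundant miRNA of the serum library, and members of families that share the seed of miR-16, of miR-25 or of miR-93, which were mostly higher in serum.
miR-451a: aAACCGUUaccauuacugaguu
miR-16-5p: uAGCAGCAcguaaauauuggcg
miR-15a-5p: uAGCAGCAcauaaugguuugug
miR-322-5p: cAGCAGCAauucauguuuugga
miR-25-3p: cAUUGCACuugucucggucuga
miR-92a-3p: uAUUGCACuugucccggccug
miR-93-5p: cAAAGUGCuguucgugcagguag
Predicted miRNAs took a larger share of the reads in 18m-SI-Exos than in 18m-serum-exos, and some of their sequences, taken from the deposited annotation, are shown because they carry no established name. No seed is marked in them.
predicted miR53-5p: gggcuggagagauggcuc
predicted miR193-5p: ggggcuggagagauggcu
predicted miR328-5p: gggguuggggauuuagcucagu
predicted miR186-5p: ugugugugugugugugug

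The miRNA contents of the 2 sources differed widely. miRNAs with 10 reads or more in either library counted as measured, and one was called higher in a source when the ratio of CPM was at least 2-fold, or the other library had 0 reads, and the exact 95% interval of the ratio left out 1. Of 262 measured miRNAs, 86 (32.8%) were higher in 18m-SI-Exos and 78 (29.8%) were higher in 18m-serum-exos, 62.6% in either direction. Those higher in SI-Exos were 62 known and 24 predicted miRNAs, and all 78 that were higher in serum were known. The split depends on the scaling: TMM factors gave 70 and 116, DESeq2 size factors 64 and 132, and the authors' RPM 48 and 197. The log2 ratio of SI-Exos over serum ran from -6.27 to 14.89 with a median of -0.44, and this median was -1.61 with TMM factors, -2.07 with DESeq2 size factors and -4.13 with RPM. A scaling moves all log2 ratios by the same amount, so the order of miRNAs and lists along this axis is the same under each of them. Differences of at least 10-fold were called for 61 miRNAs in the direction of SI-Exos and for 40 in the direction of serum.

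**Figure D1:**
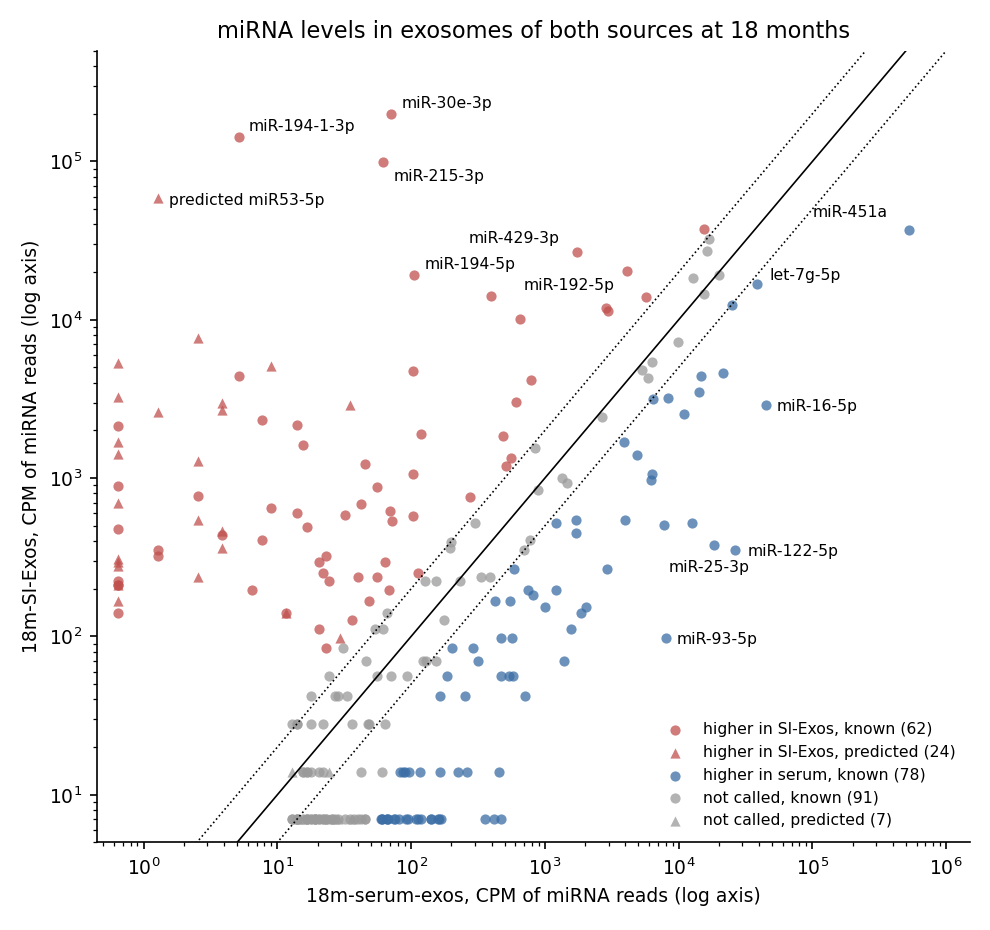
Each point is 1 of the 262 measured miRNAs, with its level in 18m-serum-exos on the x axis and in 18m-SI-Exos on the y axis, both in CPM on log axes; 0 reads are drawn at 0.5 of 1 read. The solid line marks equal levels and the dotted lines a 2-fold difference. The 62 known and 24 predicted miRNAs higher in SI-Exos lie at the upper left, with miR-194-1-3p and miR-30e-3p far from the line, and the 78 higher in serum at the lower right.

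Detection also differed between the libraries. 218 names had reads in both libraries, 40 in 18m-SI-Exos alone and 278 in 18m-serum-exos alone. With the serum library thinned to the depth of the SI-Exos library, the expected numbers found in SI-Exos alone and in serum alone were 88.9 and 97.1. At equal depth the numbers of names found in a single source were thus close to each other. Among the 98 measured miRNAs that were not called, 37 had 0 reads in SI-Exos, where a difference was not detectable at this depth. Across the 262 measured miRNAs, Pearson's r of the log2 levels was 0.32 and Spearman's rho 0.27, a description over miRNAs that share a library.

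The most abundant miRNAs were largely different. The 10 most abundant took 67.9% of the reads in 18m-SI-Exos and 75.3% in 18m-serum-exos, and 3 names stood among the 10 in both libraries, miR-451a, miR-143-3p and miR-26a-5p. The SI-Exos library was led by the 3p arms of 3 hairpins. miR-30e-3p was at 198100 CPM in 18m-SI-Exos and 70.7 CPM in 18m-serum-exos (14135 and 55 reads), 2803-fold (2152 to 3723) higher in SI-Exos. miR-194-1-3p was at 141900 CPM in 18m-SI-Exos and 5.14 CPM in 18m-serum-exos (10125 and 4 reads), 27608-fold (10779 to 101346) higher. miR-215-3p was at 98706 CPM in 18m-SI-Exos and 61.7 CPM in 18m-serum-exos (7043 and 48 reads), 1600-fold (1206 to 2173) higher. Together these 3 arms took 43.9% of the reads of 18m-SI-Exos and 0.0137% of those of 18m-serum-exos. They were also higher in SI-Exos at 3 months, when they took 3.93% of the SI-Exos reads and 0.00913% of the serum reads. In 3m-SI-Exos they were at 13736, 12558 and 13006 CPM in the same order, and in 3m-serum-exos at 69.7, 0 and 21.6 CPM. Since CPM sums to a fixed total, the room they take lowers the CPM of the other miRNAs of 18m-SI-Exos. With totals that leave these arms out, an alternative chosen after seeing the data, 100 miRNAs were higher in SI-Exos and 47 in serum.

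In the serum library a single miRNA took more reads than all others together. miR-451a was at 37055 CPM in 18m-SI-Exos and 525476 CPM in 18m-serum-exos (2644 and 408945 reads), 14.2-fold (13.6 to 14.7) higher in serum. It was nevertheless the sixth most abundant miRNA of 18m-SI-Exos, at 3.71% of its reads. At 3 months it was at 6277 CPM in SI-Exos and 215611 CPM in serum. With totals that leave miR-451a out, also chosen after seeing the data, the CPM of every other serum miRNA is 2.11-fold higher, and 72 miRNAs were higher in SI-Exos and 111 in serum. After it, the serum library held miR-16-5p at 45045 CPM, let-7g-5p at 38247 CPM, miR-122-5p at 26509 CPM, miR-126a-3p at 25044 CPM and let-7i-5p at 21387 CPM. All 5 of these were called higher in serum.

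**Figure D2:**
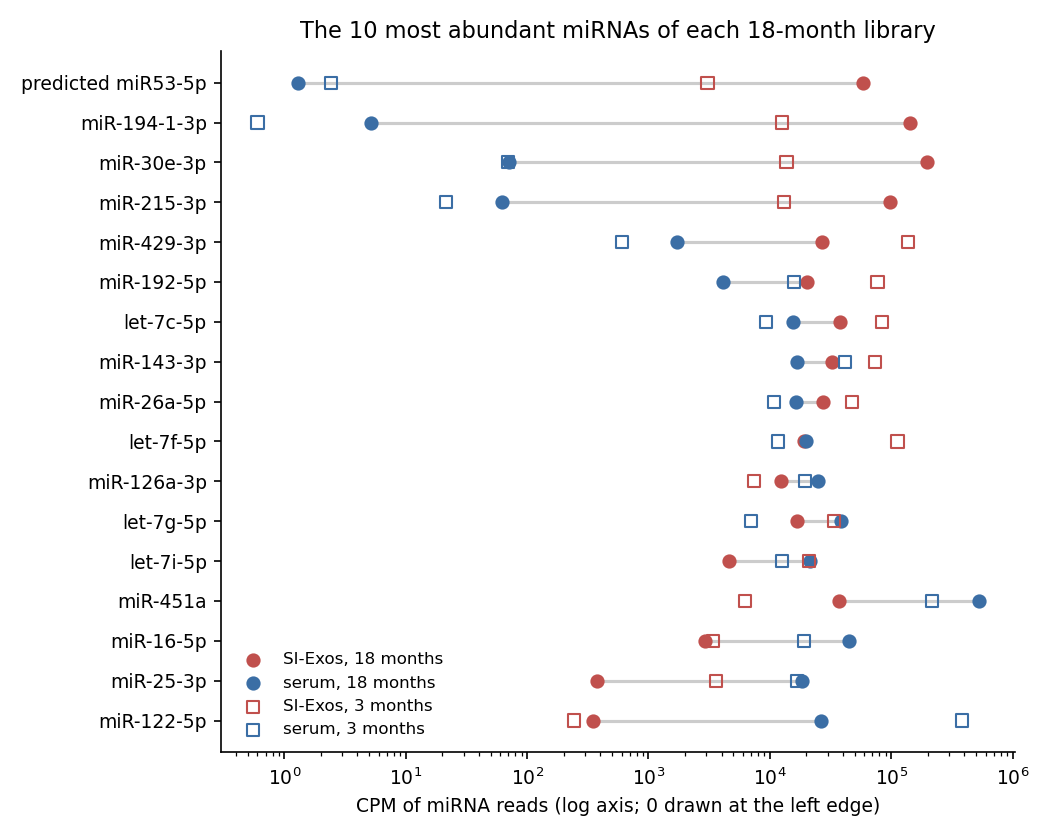
CPM of miRNA reads (x axis, log scale) of the 10 most abundant miRNAs of each 18-month library, ordered by the 18-month ratio. Filled circles are the 18-month libraries and open squares the 3-month libraries, red for SI-Exos and blue for serum, each 1 library, and a level of 0 is drawn at the left edge. The 3p arms of miR-194-1, miR-30e and miR-215 lie from 98706 to 198100 CPM in 18m-SI-Exos and at 70.7 CPM or less in 18m-serum-exos, while miR-451a lies highest in 18m-serum-exos.

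The arm from which a miRNA came differed between the sources for a few hairpins. Over all names with an arm, 66.7% of the reads of 18m-SI-Exos came from 3p arms (66.3 to 67.1%), against 29.8% in 18m-serum-exos (29.6 to 29.9%). Without the 3p arms of miR-30e, miR-194-1 and miR-215, these shares were 32.2 and 29.7%. Of 38 hairpins with at least 50 reads of both arms together in each library, 6 had a higher 3p share in SI-Exos with intervals apart, 5 had a higher one in serum, and in 27 the intervals overlapped. The arm with more reads differed between the sources in 3 hairpins. Hairpins whose names differ only in a hairpin number, as for miR-194 and miR-7a, were counted together as 1.

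The largest difference was that of the miR-194 hairpin, whose 5p arm is the form usually named as the intestinal miRNA. Its 3p arm gave 88.1% of the reads in 18m-SI-Exos (87.5 to 88.7%, 10125 and 1364 reads) and 5.75% in 18m-serum-exos (1.89 to 12.9%, 5 and 82 reads), with the reads of both miR-194 hairpins counted together. The miR-215 hairpin behaved alike, with 87.4% of its reads on the 3p arm in SI-Exos (86.7 to 88.1%) and 13.5% in serum (10.1 to 17.5%). Both hairpins lie close together on chromosome 1, Mir194-1 at chr1:185313319-185313385 and Mir215 at chr1:185313581-185313692 (GRCm38.p6, plus strand), inside the noncoding gene 2010103J01Rik and opposite an intron of Iars2. At 3 months the 3p shares were 28.9% and 1.65% for miR-194 and 49.8% and 21.2% for miR-215, again higher in SI-Exos. The Mir30e hairpin lies at chr4:120772606-120772697 in an intron of Nfyc, which encodes a subunit of a transcription factor. Its 3p arm gave 99.8% of the reads in SI-Exos and 75.3% in serum (63.9 to 84.7%). miR-30e-3p and miR-30a-3p share the seed UUUCAGU and nearly all other bases, so how their reads were divided is uncertain. Counted together they took 19.8% of the reads of 18m-SI-Exos and 0.0270% of those of 18m-serum-exos.

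The opposite direction was found for miR-574, miR-200a and miR-7a. The 3p arm of miR-574 gave 24.6% of the reads in 18m-SI-Exos (14.1 to 37.8%) and 82.8% in 18m-serum-exos (71.3 to 91.1%), and at 3 months 12.0% and 94.1%. The 3p arm of miR-200a gave 62.1% in SI-Exos (49.3 to 73.8%) and 98.8% in serum (93.3% or more). The 3p arm of miR-7a gave 0.334% in SI-Exos and 22.9% in serum (20.01 to 25.9%), with the reads of the miR-7a hairpins counted together. miR-7a-1-3p had 1 and 175 of these reads. At the other end, hairpins such as those of miR-22, miR-26a, miR-27b and miR-126a kept the same main arm in both sources, and their intervals overlapped.

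**Figure D3:**
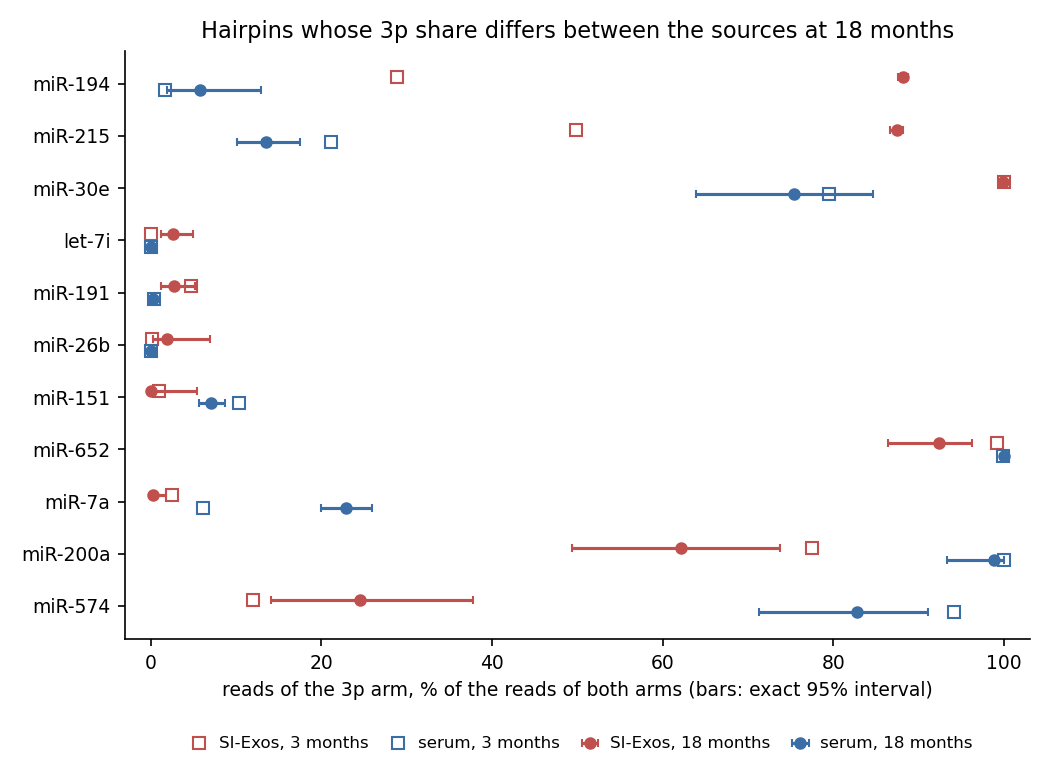
Reads of the 3p arm as a percentage of the reads of both arms (x axis) for the hairpins whose exact 95% intervals (bars) are apart between 18m-SI-Exos (red) and 18m-serum-exos (blue). Open squares give the 3-month libraries. The hairpins of miR-194 and miR-215 lie at 88.1 and 87.4% in 18m-SI-Exos and at 5.75 and 13.5% in 18m-serum-exos, and that of miR-574 lies in the opposite order.

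Most miRNAs of the epithelial list were higher in SI-Exos. Of its 14 members, all measured, 11 were higher in SI-Exos, 1 in serum and 2 were not called, against 32.8% and 29.8% of all measured miRNAs, and the median log2 ratio was 4.00. DESeq2 size factors gave 9 and 3, and RPM gave 5 in each direction with a median of 0.31. Together they took 8.68% of the reads of 18m-SI-Exos and 0.682% of those of 18m-serum-exos, a ratio of the sums of 12.7 (12.3 to 13.2). At 3 months 13 were higher in SI-Exos and 1 in serum. miR-194-5p was at 19116 CPM in 18m-SI-Exos and 105 CPM in 18m-serum-exos (1364 and 82 reads), 181.4-fold (145.1 to 229.6) higher. miR-215-5p was at 14225 CPM in 18m-SI-Exos and 396 CPM in 18m-serum-exos (1015 and 308 reads), 35.9-fold (31.6 to 41.0) higher. miR-192-5p, which shares the seed of miR-215-5p, was at 20350 CPM in 18m-SI-Exos and 4132 CPM in 18m-serum-exos (1452 and 3216 reads), 4.92-fold (4.63 to 5.24) higher. These 3 miRNAs are all known from the intestinal epithelium, and the intervals of their ratios did not overlap. The ratio of miR-192-5p was 1.59 with DESeq2 size factors and 0.381 with RPM, which is higher in serum.

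The miR-200 family holds epithelial cells in their state by repressing the Zeb factors. miR-429-3p, its most abundant member, was at 26866 CPM in 18m-SI-Exos and 1735 CPM in 18m-serum-exos (1917 and 1350 reads), 15.5-fold (14.4 to 16.6) higher in SI-Exos. miR-141-3p was 15.98-fold (10.7 to 24.1) higher, miR-200c-3p 18.3-fold (10.9 to 31.4) higher and miR-200a-3p 5.59-fold (3.74 to 8.24) higher. miR-200b-3p had 0 reads in 18m-SI-Exos and 35 in 18m-serum-exos and was not called. The ratio of miR-429-3p was 226 at 3 months and 15.5 at 18 months. By RPM its ratio at 18 months was 1.20 and was not called, and that of miR-200a-3p was below 1. At 3 months miR-429-3p was at 1563 RPM in SI-Exos and 35.7 RPM in serum. miR-141-5p, the other arm of miR-141, had 152 reads in 18m-SI-Exos and 0 in serum, at least 553-fold higher (exact lower limit 444) against 3 reads.

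The remaining epithelial miRNAs were rarer. miR-31-5p had 166 reads in 18m-SI-Exos and 6 in 18m-serum-exos, 302-fold (135.7 to 834) higher, and its partner miR-31-3p had 316 and 4, 862-fold (333 to 3182) higher. The miR-183 cluster makes miR-96, miR-182 and miR-183 from 1 transcript. miR-96-5p had 55 and 2 reads, miR-182-5p 31 and 3 reads and miR-183-5p 49 and 33 reads, and all 3 were higher in SI-Exos. miR-205-5p, typical of stratified rather than intestinal epithelium, was the member higher in serum, with 1 and 91 reads. miR-203-3p, known from the epidermis, had 0 and 31 reads and was not called.

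Of the list of secretory and endocrine epithelium, 2 of 3 measured members were higher in SI-Exos and 0 in serum. Of all measured miRNAs, 32.8% were higher in SI-Exos and 29.8% in serum. For this list DESeq2 size factors called 0 in either direction and RPM called 3 in serum. miR-375-3p, found in enteroendocrine and islet cells, was at 3013 CPM in 18m-SI-Exos and 609 CPM in 18m-serum-exos, 4.95-fold (4.19 to 5.82) higher. miR-7a-5p, a miRNA of endocrine cells and neurons, was at 4176 CPM in 18m-SI-Exos and 793 CPM in 18m-serum-exos (298 and 617 reads), 5.27-fold (4.57 to 6.06) higher. By RPM both were higher in serum. miR-802-5p had 0 and 14 reads and was not called, and miR-7b-5p had 0 reads in both libraries. The miRNAs of the exocrine pancreas list, miR-216a-5p, miR-216b-5p and miR-217-5p, stood in neither table.

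Mesenchymal miRNAs were found in both sources. Of 7 measured members, 4 were higher in SI-Exos, 0 in serum and 3 were not called, beside 32.8% and 29.8% of all measured miRNAs. With RPM 1 and 5 were called. The median log2 ratio of the list was 1.251, and it was -0.38 with DESeq2 size factors and -2.44 with RPM. miR-143-3p, which marks smooth muscle and fibroblasts, was at 32556 CPM in 18m-SI-Exos and 16875 CPM in 18m-serum-exos (2323 and 13133 reads), 1.93-fold (1.85 to 2.02) higher in SI-Exos and just short of a call. miR-145a-5p, made from the same transcript, was 2.37-fold (1.88 to 2.97) higher, a ratio that fell below 1 with DESeq2 size factors and with RPM. miR-199a-5p was at 1626 CPM in 18m-SI-Exos and 15.4 CPM in 18m-serum-exos (116 and 12 reads), 105-fold (58.1 to 209.9) higher. The list member miR-199b-3p, whose mature sequence equals that of miR-199a-3p (0 and 7 reads), had 17 and 301 reads without a call. Its level in SI-Exos was 0.616 of that in serum, with an interval of 0.354 to 1.003. This value was 0.274 with TMM factors, 0.199 with DESeq2 size factors and 0.0476 with RPM. miR-145a-3p had 1 and 14 reads, also without a call. miR-214-3p, which comes from the same noncoding gene as miR-199a-5p, had 17 and 43 reads and was 4.31-fold (2.31 to 7.72) higher. The summed level of the list was 3.62% of the reads in 18m-SI-Exos and 1.79% in 18m-serum-exos. Nearly all of it was miR-143-3p, at 3.26% and 1.69%. miRNAs typical of the layers under the epithelium were thus present in the library labelled epithelium, with most of their reads from this 1 name. In bulk exosomes, fewer vesicles from a cell type and less of its miRNA per vesicle cannot be told apart.

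Blood cell miRNAs were mostly higher in serum. Of 7 measured red blood cell miRNAs, 5 were higher in serum and 0 in SI-Exos, beside 29.8% and 32.8% of all measured miRNAs. The red blood cell list had a median log2 ratio of -3.67. Its members took 54.1% of the reads of 18m-serum-exos and 3.79% of those of 18m-SI-Exos, nearly all of it miR-451a. miR-486a-5p, like miR-451a a miRNA of late red cell precursors, was at 519 CPM in 18m-SI-Exos and 12653 CPM in 18m-serum-exos (37 and 9847 reads), 24.4-fold (17.7 to 34.7) higher in serum. miR-486b-5p had 10 and 1461 reads, 13.4-fold (7.26 to 27.99) higher, and the miR-486 loci overlap on opposite strands, so the split of their reads is uncertain. miR-144-3p, which is made from the same transcript as miR-451a, was at 126.1 CPM in 18m-SI-Exos and 177 CPM in 18m-serum-exos and was not called. The part that red cells or their vesicles had in the level of miR-451a in either library was not tested.

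Of 10 measured white blood cell miRNAs, 6 were higher in serum and 2 in SI-Exos, beside 29.8% and 32.8% of all measured miRNAs. None of the 10 was higher in SI-Exos with TMM factors, DESeq2 size factors or RPM. miR-223-3p, abundant in neutrophils, was at 266 CPM in 18m-SI-Exos and 2898 CPM in 18m-serum-exos (19 and 2255 reads), 10.9-fold (6.95 to 18.1) higher in serum. miR-150-5p, known from lymphocytes, was 5.93-fold (4.73 to 7.54) higher in serum, and miR-146a-5p, which limits inflammatory signalling, 4.07-fold (3.59 to 4.63) higher. miR-181a-5p, known from developing lymphocytes but widely expressed, went the other way at 11394 CPM in 18m-SI-Exos and 2982 CPM in 18m-serum-exos (813 and 2321 reads), 3.82-fold (3.52 to 4.14) higher in SI-Exos, and higher in serum by RPM. The list took 1.67% of the reads of 18m-SI-Exos and 2.71% of those of 18m-serum-exos. Its median log2 ratio was -2.11, or -1.21 with members at 0 reads set to their bound.

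Of the markers of liver, muscle, vessel and nerve, 6 of 9 measured were higher in serum and 0 in SI-Exos, beside 29.8% and 32.8% of all measured miRNAs, and each of these lists is short. miR-122-5p was at 350.4 CPM in 18m-SI-Exos and 26509 CPM in 18m-serum-exos (25 and 20630 reads), 75.7-fold (51.2 to 117) higher in serum, and at 3 months it was at 245 CPM in SI-Exos and 384405 CPM in serum. The serum library was higher at both ages, and its level there was lower at 18 months than at 3 months. Of 4 measured miRNAs of striated muscle, 3 were higher in serum. miR-1a-3p was at 967 CPM in 18m-SI-Exos and 6258 CPM in 18m-serum-exos (69 and 4870 reads), 6.47-fold (5.10 to 8.33) higher, miR-206-3p 4.50-fold (2.61 to 8.50) higher and miR-499-5p 5.80-fold (2.79 to 14.5) higher. miR-133a-3p, which is made together with miR-1a, had 26 and 152 reads, a ratio of 1.87 in the direction of SI-Exos, and was not called. The muscle list took 0.164% of the reads in 18m-SI-Exos and 0.785% in 18m-serum-exos. miR-126a-3p, annotated in an exon of the endothelial gene Egfl7, was at 12333 CPM in 18m-SI-Exos and 25044 CPM in 18m-serum-exos (880 and 19490 reads), 2.03-fold (1.90 to 2.17) higher in serum, and miR-126a-5p, the other measured member of the endothelial list, had 17 and 259 reads and was not called. miR-128-3p, a miRNA of neurons, had 3 and 551 reads, 16.8-fold (5.73 to 81.9) higher in serum, and 1 of the 2 measured members of the nervous system list was called.

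**Figure D4:**
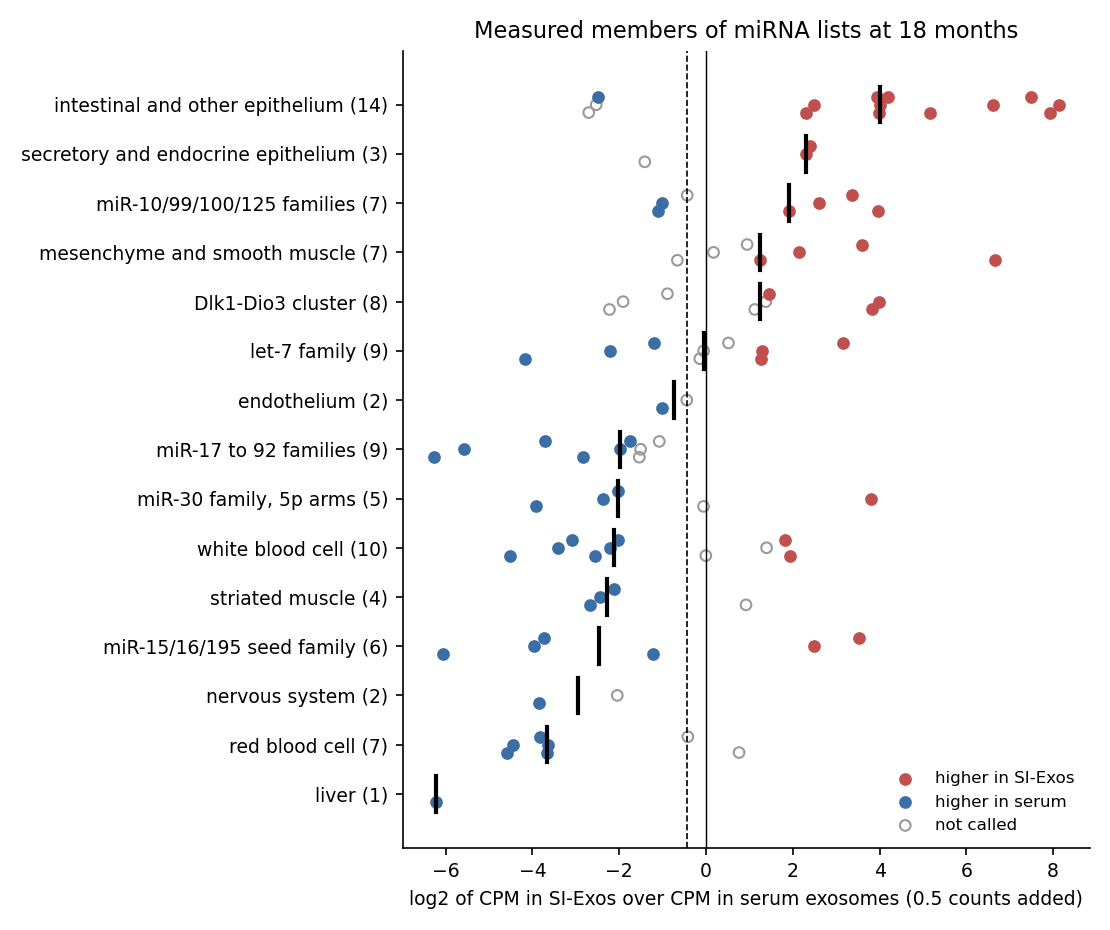
Log2 ratio of CPM in 18m-SI-Exos over 18m-serum-exos (x axis, 0.5 counts added) for the measured members of each list, with the number measured in brackets. Each point is 1 miRNA, filled red or blue where it was called higher in SI-Exos or serum and open where it was not called, thick bars are list medians, and the dashed line is the median of all 262 measured miRNAs at -0.44. The epithelial list lies farthest to the right with a median of 4.00, and the red blood cell list has a median of -3.67.

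The let-7 family, which promotes differentiation and opposes Lin28, had members on both sides on the CPM scale. Of 9 measured members, 3 were higher in SI-Exos, 3 in serum and 3 were not called, close to the 32.8% and 29.8% of all measured miRNAs, with a median log2 ratio of -0.05. The counts in SI-Exos and serum were 1 and 5 with TMM factors, 1 and 6 with DESeq2 size factors and 0 and 8 with RPM. All members with the seed GAGGUAG together took 11.6% of the reads in 18m-SI-Exos and 12.1% in 18m-serum-exos, a ratio of 0.963 (0.942 to 0.985). let-7e-5p was 8.89-fold (5.83 to 13.5) higher in SI-Exos, let-7b-5p 2.45-fold (2.28 to 2.62) higher and let-7c-5p 2.42-fold (2.32 to 2.52) higher, and all 3 ratios were below 1 with RPM. let-7f-5p was at 19242 CPM in 18m-SI-Exos and 19988 CPM in 18m-serum-exos (1373 and 15555 reads), a ratio of 0.963 whose interval of 0.910 to 1.017 held 1. let-7g-5p was 2.29-fold (2.16 to 2.43) higher in serum, let-7i-5p 4.62-fold (4.15 to 5.17) higher and miR-98-5p 19.9-fold (8.49 to 61.3) higher. At 3 months 8 members were higher in SI-Exos and 0 in serum by CPM, against 0 and 1 by RPM, and the family took 36.2% of the SI-Exos reads and 5.70% of the serum reads. The members differ in few bases, so how their reads were divided is uncertain.

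The families that share the seed of miR-16, miR-25 or miR-93 were mostly higher in serum. The seed family of miR-15, miR-16 and miR-195, which restrains the cell cycle, had 4 of 6 measured members higher in serum and 2 in SI-Exos. Of all measured miRNAs, 29.8% were higher in serum and 32.8% in SI-Exos. The summed level of the family was 0.390% of the reads in 18m-SI-Exos and 4.84% in 18m-serum-exos, 12.4-fold higher (11.0 to 14.01). miR-16-5p was at 2901 CPM in 18m-SI-Exos and 45045 CPM in 18m-serum-exos (207 and 35056 reads), 15.5-fold (13.5 to 17.9) higher. miR-15a-5p had 8 and 1225 reads, 14.04-fold (7.10 to 32.6) higher, and miR-322-5p had 0 and 366 reads, at least 11.2-fold higher (exact lower limit 9.05) against 3 reads. The members higher in SI-Exos, miR-195a-5p and miR-497a-5p, come from 1 shared transcript and had 18 and 8 reads there, against 17 and 16 in the far deeper serum library. Members of 1 seed family therefore lay on opposite sides on the CPM scale. The counts in SI-Exos and serum were 1 and 4 with TMM factors and with DESeq2 size factors, and 0 and 4 with RPM.

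The miR-17 to 92 families are known for driving proliferation and are abundant in blood cell precursors. Of 9 measured members, 6 were higher in serum and 0 in SI-Exos, beside 29.8% and 32.8% of all measured miRNAs. The median log2 ratio of the list was -1.98, and its reads were 0.112% of 18m-SI-Exos and 3.10% of 18m-serum-exos. miR-93-5p was at 98.1 CPM in 18m-SI-Exos and 8093 CPM in 18m-serum-exos (7 and 6298 reads), 82.5-fold (40.0 to 205.3) higher, the lowest log2 ratio of all measured miRNAs. miR-25-3p was at 378.4 CPM in 18m-SI-Exos and 18494 CPM in 18m-serum-exos (27 and 14393 reads), 48.9-fold (33.6 to 74.2) higher. Mir93 and Mir25 lie on chromosome 5 within Mcm7, a gene of DNA replication, at chr5:138165523-138165610 and chr5:138165321-138165404, and the mature sequences fall in annotated exons. miR-92a-3p, which shares the seed of miR-25-3p, was 7.25-fold (5.29 to 10.2) higher. By seed, the members with AAAGUGC summed to 9 reads in SI-Exos and 6492 in serum, 66.1-fold higher (34.8 to 144.7), and those with AUUGCAC to 87 and 17503 reads, 18.4-fold higher (14.9 to 23.0).

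The 5p arms of the miR-30 family were mostly higher in serum, unlike miR-30e-3p. Of 5 measured, 3 were higher in serum and 1 in SI-Exos, beside 29.8% and 32.8% of all measured miRNAs. The median log2 ratio of these 5p arms was -2.03. miR-30d-5p was at 505 CPM in 18m-SI-Exos and 7760 CPM in 18m-serum-exos (36 and 6039 reads), 15.4-fold (11.1 to 21.98) higher, and miR-30a-5p was 4.49-fold (1.90 to 13.96) higher. miR-30e-5p, the partner of the leading miRNA of 18m-SI-Exos, had 23 and 18 reads and was 13.9-fold (7.20 to 27.4) higher in SI-Exos. The miRNA with 19.8% of the SI-Exos reads thus had a partner arm at 322.3 CPM.

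The miR-10, miR-99, miR-100 and miR-125 families had 4 of 7 members higher in SI-Exos and 2 in serum, beside 32.8% and 29.8% of all measured miRNAs. These counts were 3 and 3 with TMM factors, 2 and 3 with DESeq2 size factors and 0 and 5 with RPM, and the median log2 ratio of 1.92 was -1.77 with RPM. miR-100-5p was at 10133 CPM in 18m-SI-Exos and 649 CPM in 18m-serum-exos (723 and 505 reads), 15.6-fold (13.9 to 17.5) higher in SI-Exos, and miR-125b-5p, which has another seed, had 76 and 80 reads and was 10.4-fold (7.47 to 14.4) higher. miR-99a-5p, which shares the seed of miR-100-5p, went the other way at 3167 CPM in 18m-SI-Exos and 6400 CPM in 18m-serum-exos (226 and 4981 reads), 2.02-fold (1.77 to 2.32) higher in serum. miR-99b-5p was 3.78-fold (3.08 to 4.62) higher in SI-Exos, and below 1 by RPM. At 3 months miR-100-5p and miR-125b-5p were not called.

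Few miRNAs of the Dlk1-Dio3 cluster, a large imprinted cluster on chromosome 12, reached the minimum of reads. Of 49 names in the list, 35 stood in the tables and 8 were measured, of which 3 were higher in SI-Exos and 0 in serum, beside 32.8% and 29.8% of all measured miRNAs. The counts were 2 and 3 with TMM factors and with DESeq2 size factors, and 0 and 6 with RPM. The median log2 ratio of those 8 was 1.251, and it was -0.38 with DESeq2 size factors and -2.44 with RPM. miR-411-5p was at 1906 CPM in 18m-SI-Exos and 119.5 CPM in 18m-serum-exos, 15.9-fold (12.2 to 21.0) higher in SI-Exos. miR-127-3p was 2.73-fold (1.98 to 3.69) higher, but its ratio was below 1 with DESeq2 size factors and with RPM. miR-382-5p had 21 and 16 reads and was 14.3-fold (7.12 to 29.3) higher. miR-379-5p, which the study carried forward into adipose progenitors, had 8 and 42 reads and a ratio of 2.08-fold (0.842 to 4.48) that was not called. With 8 reads in 18m-SI-Exos, a difference of this size by CPM was not detectable at this depth. The ratio of miR-379-5p was 0.924 with TMM factors, 0.672 with DESeq2 size factors and 0.161 with RPM, by which it was called higher in serum. At 3 months it had 302 and 374 reads and was 3.17-fold (2.71 to 3.69) higher in SI-Exos by CPM. By RPM it was at 16.2 in 3m-SI-Exos and 26.5 in 3m-serum-exos.

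The study had followed 10 miRNAs by RT-qPCR, which it had chosen from these libraries by their difference between ages. Between the sources at 18 months, 3 of them were higher in SI-Exos, 2 in serum and 5 were not called, no larger a share in either direction than the 32.8% and 29.8% of all measured miRNAs. These counts were 2 and 4 with TMM factors, 1 and 4 with DESeq2 size factors and 0 and 9 with RPM, and the list had a median log2 ratio of 0.42 that turned negative with TMM factors, DESeq2 size factors and RPM. miR-411-5p, miR-192-5p and miR-378a-3p were higher in SI-Exos, miR-378a-3p at 11871 CPM in 18m-SI-Exos and 2874 CPM in 18m-serum-exos (847 and 2237 reads), 4.13-fold (3.81 to 4.47) higher, though not by RPM. miR-1839-5p was at 56.1 and 185 CPM, 3.30-fold (1.26 to 12.3) higher in serum, and miR-28a-3p had 0 and 52 reads, at least 1.59-fold higher (exact lower limit 1.247) against 3 reads. The other 5 included miR-22-3p at 14547 CPM in 18m-SI-Exos and 15592 CPM in 18m-serum-exos (1038 and 12134 reads) and miR-27b-3p at 4275 CPM in 18m-SI-Exos and 5850 CPM in 18m-serum-exos (305 and 4553 reads).

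Some abundant miRNAs were at nearly the same CPM in both sources. Of 29 miRNAs at 1000 CPM or more in both libraries, the 5 nearest to equal were let-7f-5p, miR-22-3p, miR-24-3p, let-7d-5p and miR-34a-5p, with ratios from 0.858 to 0.963. miR-24-3p was at 5396 CPM in 18m-SI-Exos and 6287 CPM in 18m-serum-exos (385 and 4893 reads), a ratio of 0.858 (0.772 to 0.952). miR-34a-5p, a miRNA induced by p53 and known to rise with age in several tissues, was at 2439 CPM in 18m-SI-Exos and 2679 CPM in 18m-serum-exos (174 and 2085 reads), a ratio of 0.910 (0.775 to 1.06). These ratios are near 1 only on the CPM scale, since RPM lowers all of them 12.9-fold.

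Predicted miRNAs took 9.94% of the reads of 18m-SI-Exos (7090 reads) and 0.0392% of those of 18m-serum-exos (305 reads). Of 31 measured, 24 were higher in SI-Exos and 0 in serum, beside 32.8% and 29.8% of all measured miRNAs. The 305 serum reads were spread over 55 predicted names, so many could reach the minimum of 10 reads only through SI-Exos. Names that pass in this way lean to SI-Exos because of the filter, and the count of 24 adds little to the shares of reads. At 3 months predicted miRNAs took 1.59% of the SI-Exos reads and 0.129% of the serum reads. The predicted miR53-5p alone had 4162 reads in 18m-SI-Exos and 1 in 18m-serum-exos, and the lower limit of its ratio was 8143. Predicted miR193-5p holds the same run moved by 1 base, and it had 101 and 0 reads. Predicted miR328-5p was at 5312 CPM in 18m-SI-Exos and 0 CPM in serum, at least 1378-fold higher (exact lower limit 1115) against 3 reads. Among all predicted names, 7 were plain dinucleotide repeats such as predicted miR186-5p, with 1499 reads in 18m-SI-Exos and 15 in 18m-serum-exos. Whether these sequences are miRNAs was not tested, and the comparison of known miRNAs without them had 231 measured names.

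The difference between the sources at 18 months was largely also present at 3 months. Over 227 miRNAs measured at both ages, Pearson's r of the log2 ratios was 0.74 and Spearman's rho 0.67, and the sign was equal in 177, or in 196 with RPM at both ages. These are descriptions over miRNAs that share 4 libraries and the same tables. Of the 76 higher in SI-Exos at 18 months, 63 were also higher there at 3 months, 5 were higher in serum and 8 were not called. Of the 78 higher in serum at 18 months, 49 were also higher in serum at 3 months, 6 were higher in SI-Exos and 23 were not called. At 3 months, 43.8% of 274 measured miRNAs were higher in SI-Exos and 29.2% in serum, 73% in either direction, and RPM gave 66 and 156 of them. RPM lowers the 3-month ratios 5.16-fold, less than those at 18 months. The median log2 ratio of the 227 was 0.13 at 3 months and -0.44 at 18 months.

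**Figure D5:**
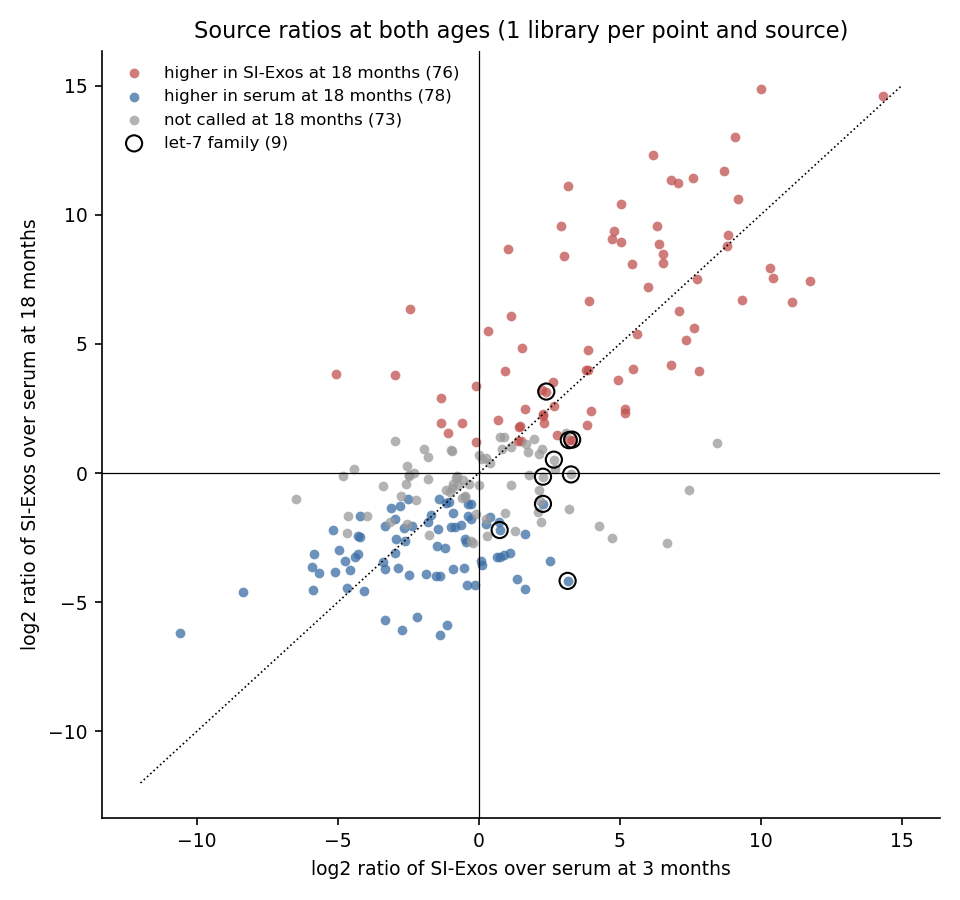
Log2 ratio of CPM in SI-Exos over serum at 3 months (x axis) and at 18 months (y axis) for the 227 miRNAs measured at both ages, colored by the 18-month call, with 1 library behind each source and age. The dotted line marks equal ratios. Most points lie in the quadrants of equal sign (177 of 227), and the 9 let-7 miRNAs, ringed, lie right of 0 at 3 months and on both sides of 0 at 18 months.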

How the data were processed

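Small RNA was measured in 4 libraries of exosomes, SI-Exos and serum exosomes at 3 and 18 months of age, 1 library each. For every mature miRNA the authors deposited a read count and an RPM value, which rests on a library total larger than the miRNA reads. Bowtie2 2.2.9 and GRCm38 stand in the submitters' processing notes. Alignment settings are not stated in the labels or the paper's methods. The deposited log2, p-value and FDR columns hold the authors' comparisons between ages and were not used. All columns of values per library were matched to a library by source and age (0 left over).

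Counts were joined by name, with absent names at 0, and scaled to each library's sum of miRNA reads (CPM), 71353 in 18m-SI-Exos and 778237 in 18m-serum-exos. Each ratio has an exact 95% interval (Clopper-Pearson), taken from the share of 1 count in the sum of both. Medians use 0.5 added counts, and bounds a floor of 3 reads per library, 42.0 CPM in 18m-SI-Exos and 3.85 CPM in 18m-serum-exos. No count model was fitted, since a source has 1 library. Simulated counts with known ratios were used to check the calls.

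The members and the 17 lists were chosen with earlier results of these data known. Selected for naming were the 10 most abundant miRNAs of each library. To these came the 12 called in each direction with an interval farthest from 1, given at least 100 reads. The 4 most abundant members of each list, even and arm-switching miRNAs, and the miRNAs the study followed by RT-qPCR were also selected. Not every miRNA so selected is given in the text. Among those left out are miR-139-5p and miR-181d-5p, both higher in serum, and let-7a-5p, miR-30b-5p and miR-10a-5p, which were not called. Other names were chosen after their values were seen. Some list members stand in a second list.

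Alternatives were TMM factors (edgeR 4.0.16), size factors (DESeq2 1.42.0), RPM, totals without the 5 most abundant miRNAs of each library, minima of 1 or 50 reads or 140 CPM, folds of 1.5 or 4, other interval rules, known miRNAs alone, 2 added counts, shared sequences added up, and 20 reads per hairpin. Places came from GENCODE on GRCm38. Python 3.11.15, pandas 2.3.3, numpy 2.4.6, scipy 1.17.1, matplotlib 3.10.9 and R 4.3.3 were used.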

Additional observations from a re-analysis of the deposited data

Results flagged for a closer look

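For 10 known miRNAs the source with the higher level was called in opposite directions at 18 and at 3 months, each age with 1 library per source, and the difference between the ages was not tested. These calls are by CPM and depend on that scale. With the authors' RPM, which lowers the ratios of SI-Exos to serum 12.9-fold at 18 months and 5.16-fold at 3 months, 0 of the 10 were called in opposite directions, and 3 (miR-98-5p, miR-7a-1-3p and miR-382-5p) had ratios on opposite sides of 1. RPM in turn called 10 known miRNAs in opposite directions, of which 8 were higher in SI-Exos at 3 months and 0 were shared with the calls by CPM. let-7g-5p was at 387 RPM in 3m-SI-Exos and 412 RPM in 3m-serum-exos, a ratio of 0.938 (0.906 to 0.971). The values that follow are by CPM. Of the 10 called by CPM, 6 were higher in serum at 18 months and in SI-Exos at 3 months. let-7g-5p was 2.29-fold higher in serum at 18 months (2.16 to 2.43) and 4.84-fold higher in SI-Exos at 3 months (4.68 to 5.02), on 1193 to 29765 reads. miR-98-5p, of the same seed family, was 19.9-fold higher in serum at 18 months (8.49 to 61.3) and 8.88-fold higher in SI-Exos at 3 months (7.95 to 9.94). miR-30c-5p was 5.99-fold higher in serum at 18 months and 3.09-fold higher in SI-Exos at 3 months. miR-7a-1-3p was 16.045-fold higher in serum at 18 months on 1 and 175 reads (2.84 to 637) and 5.76-fold higher in SI-Exos at 3 months. miR-1983 had 0 reads in 18m-SI-Exos and was at least 3.76-fold higher in serum (exact lower limit 3.01), against 3.15-fold higher in SI-Exos at 3 months. miR-301a-3p, also at 0 reads, was at least 2.84-fold higher in serum (exact lower limit 2.27), against 2.54-fold higher in SI-Exos.

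The other 4 were higher in SI-Exos at 18 months and in serum at 3 months, and all had fewer than 50 reads in both SI-Exos libraries. miR-382-5p was 14.3-fold higher in SI-Exos at 18 months (7.12 to 29.3), and at 3 months it had 0 reads there and was at least 5.53-fold higher in serum. miR-320-3p was 7.401-fold higher in SI-Exos at 18 months (4.77 to 11.4) and 2.58-fold higher in serum at 3 months. miR-423-5p was 3.64-fold higher in SI-Exos at 18 months on 6 and 18 reads (1.18 to 9.56) and 2.81-fold higher in serum at 3 months. miR-574-3p was 2.88-fold higher in SI-Exos at 18 months (1.48 to 5.27) and 2.23-fold higher in serum at 3 months.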

How the results depend on the processing

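The counts of calls depended on the scaling and the filter. Those higher in serum were 132 with DESeq2 size factors, 197 with RPM, 119 with no interval rule, 50 with an interval wholly beyond 2-fold and 47 without the 3p arms of miR-30e, miR-194-1 and miR-215 in the totals, and those higher in SI-Exos were 48 with RPM and 49 with at least 50 reads. At least 140 CPM left 4 lists above the median of all measured miRNAs, against 7. Detection in both sources was 99 with at least 10 reads, detection in serum alone 180 and 123 with at least 3 and 10 reads and 97.1 after thinning, and detection in SI-Exos alone 88.9 after thinning.

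Some directions turned. The median log2 ratio of the miRNAs followed by RT-qPCR was -0.74 with TMM, -1.20 with DESeq2, -3.27 with RPM and -0.60 without miR-451a in the totals. With DESeq2 the medians of the mesenchymal and Dlk1-Dio3 lists were both -0.38, and the ratios of let-7c-5p, miR-145a-5p and miR-127-3p were 0.781, 0.766 and 0.881. With RPM the medians were -1.38 for secretory epithelium, -2.44 for mesenchyme and Dlk1-Dio3, and -1.77 for the miR-10, miR-99, miR-100 and miR-125 families. RPM also turned the ratios of let-7c-5p (0.187), miR-192-5p (0.381), miR-7a-5p (0.407), miR-375-3p (0.383), miR-181a-5p (0.295), miR-145a-5p (0.183), miR-99b-5p (0.292), miR-127-3p (0.211) and miR-378a-3p (0.319). The let-7 median was 0.23 with at least 1 read, 0.10 for known miRNAs alone and 0.78 without the 3p arms in the totals. A scaling shifts every ratio alike by construction. With RPM at both ages, 0 of the 10 known miRNAs called in opposite directions at 18 and 3 months by CPM were called so, and 10 others were. This alternative and the totals without miR-451a or without the 3p arms were chosen after seeing the data. No paired analysis was possible because each source has 1 library and the labels give no replicate numbers. Depth limits SI-Exos most, where 1 read is 14.01 CPM.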

Other observations

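The known miRNAs higher in each source differed somewhat in base composition. The median GC content was 50% for the 62 higher in SI-Exos and 45.5% for the 77 with a sequence that were higher in serum, against 46.7% for the 228 measured known miRNAs with a sequence, and the median length was 22 bases in each group. The 24 predicted miRNAs higher in SI-Exos had a median length of 18.5 bases and a median GC content of 55.1%. These are descriptions over miRNAs of 1 library per source.

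The letters GGAG, known as a motif of miRNAs sorted into exosomes, were searched on the strand of the mature miRNA. They were found in 8 of the 62 known miRNAs higher in SI-Exos (12.9%), in 6 of the 77 higher in serum (7.79%) and in 20 of all 228 (8.77%). Weighted by reads with a sequence, 22.3% of 18m-SI-Exos and 3.25% of 18m-serum-exos held these letters, and at 3 months the shares stood in the opposite order, 3.78% in SI-Exos and 39.8% in serum. The sequence of miR-194-1-3p, with 10125 reads in 18m-SI-Exos, and that of predicted miR53-5p, with 4162 reads, both hold GGAG, so the share by reads turns on few miRNAs. A match is a description of the letters and not of a binding site.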
